A study of Mus musculus with 93 samples.

Results

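Liver RNA of male C57BL/6J and A/J mice fed a western-style diet (WD) was compared, gene by gene. The mice were taken by their strain and diet labels and make up 14 of the 93 mice of the series, 8 of them C57BL/6J and 6 A/J. Both are classical inbred laboratory strains with no engineered allele, so the mice of a strain are close to genetic copies of each other. The strains differ across the whole genome, and the groups also differ in part by cohort, as described below. The mice of both groups lived at 30°C, a temperature that is thermoneutral for mice, from week 6 of life, and were switched to the WD in week 7. The WD gave 40% of its energy as fat, 17% as protein, and 43% as carbohydrate. Livers were collected at 24 weeks of age, after 17 weeks of diet and 4 h without food. A further 13 mice of the same strains, 8 C57BL/6J and 5 A/J, received a matched control diet (CD) with 10% of its energy as fat, 17% as protein, and 73% as carbohydrate at the same temperature. They were other animals, and they served to show which strain differences were also present without the WD. Each library came from a small piece of crushed whole liver. The RNA therefore mixes hepatocytes with macrophages, stellate cells, endothelial cells, and blood cells, and fewer cells of a type cannot be told apart from less RNA per cell.

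C57BL/6J is widely used as a model of diet-induced obesity and fatty liver, while A/J is known to gain less fat on energy-rich diets. In a fatty liver, triglyceride is stored in lipid droplets, whose surface proteins are in part targets of the fatty acid-sensing receptor PPAR gamma. Hepatocytes also make the bile acids, the xenobiotic-oxidising cytochrome P450s, most plasma proteins, and, in mice, the major urinary proteins, and several of these gene families differ between the sexes under the control of the pulses of growth hormone.

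The libraries held from 41232966 to 49894856 reads on genes in the 14 mice on WD and from 48631886 to 49843859 in the 13 mice on CD. Levels are given as CPM, the read count of a gene scaled to a library of 1000000 reads. A gene is called when its adjusted p from limma-voom is below 0.05 over all 19110 genes tested, log2 fold changes are given ± SE, and positive values mean higher in C57BL/6J. On the first principal component of the 14 mice, which held 67.4% of the variance, C57BL/6J mice scored from 38.4 to 53.6 and A/J mice from -65.2 to -53.1. On the second, with 10.5%, C57BL/6J mouse 3 (-40.5) and mouse 7 (44.0) were farthest apart. The mice came in labelled cohorts that are only partly shared by the strains. Of the C57BL/6J mice on WD, 5 were of cohort 1 and 3 of cohort 2, and of the A/J mice 4 were of cohort 2 and 2 of cohort 3. Strain and cohort cannot be told apart for cohorts 1 and 3, so that the 7 mice of cohort 2 were also compared alone. The share of unmapped reads was 2.82% ± 0.621 (SD, n = 8) in C57BL/6J and 2.11% ± 0.145 (SD, n = 6) in A/J, although the reads were mapped to the C57BL/6J-derived reference (adjusted p = 0.012, two-sided exact permutation test). Multimapping reads made up 9.75% ± 0.493 (SD, n = 8) in C57BL/6J and 8.71% ± 0.238 (SD, n = 6) in A/J (adjusted p = 0.00533, same test). The RNA integrity number was 8.0 to 9.0 in C57BL/6J and 8.8 to 9.2 in A/J (adjusted p = 0.0466, same test).

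The genes known to mark the strains stood as labelled. Nnt, the mitochondrial transhydrogenase gene of which C57BL/6J carries a deletion, lay at 55.9 to 86.4 CPM (median 76.0) in C57BL/6J and at 166 to 237 CPM (median 212) in A/J. Its log2 fold change was -1.50 ± 0.07 (adjusted p = 1.96e-32). Hc encodes complement C5, of which A/J carries a null allele. It lay at 566 to 789 CPM (median 731) in C57BL/6J and 144 to 235 CPM (median 189.7) in A/J, with a log2 fold change of 1.88 ± 0.11 (adjusted p = 1.43e-27). H2-Ea-ps, the MHC class II alpha chain gene that is silent in the haplotype of C57BL/6J, had 1 count in all 8 C57BL/6J mice together and 21.1 to 92.99 CPM (median 34.1) in A/J, a ratio of 17510 with an exact 95% counting interval of 3142 to 691600. No mouse of one strain overlapped a mouse of the other for these genes. Reads from the Y-linked genes Ddx3y, Uty, Kdm5d, and Eif2s3y were present in all 14 mice, and none of the 4 was called. Defining markers of liver were high in every mouse. The summed level of 20 hepatocyte markers was 86910 to 108500 CPM in C57BL/6J and 151100 to 176900 CPM in A/J. Alb, the albumin gene, took most of that sum and lay at 55830 to 67900 CPM (median 62260) in C57BL/6J and 110500 to 130600 CPM (median 117400) in A/J, with a log2 fold change of -0.93 ± 0.09 (adjusted p = 3.61e-14). Without a count filter Alb was not called, with -0.85 (adjusted p = 0.953). Of the 20 hepatocyte markers, 9 were called higher in A/J and 1, the transcription factor gene Foxa1, in C57BL/6J, with a median log2 fold change of -0.25. In cohort 2 alone 4 were higher in C57BL/6J and 4 in A/J, with a median of -0.08. Serpinc1, which encodes antithrombin, had a log2 fold change of -0.62 ± 0.05 (adjusted p = 7.04e-18). Markers of exocrine pancreas summed to at most 117 CPM in C57BL/6J and 712 CPM in A/J, each maximum in a single mouse, and markers of skeletal muscle to at most 0.692 and 17.3 CPM. None of these 13 markers was called.

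The strains differed in 8493 of the 19110 genes on WD, which is 44.4% of the genes tested. Of these, 4380 genes (22.9%) were higher in C57BL/6J and 4113 (21.5%) in A/J. With a 2-fold difference asked for as well, 2726 genes (14.3%) remained, 1665 (8.71%) higher in C57BL/6J and 1061 (5.55%) in A/J. In 3152 genes (16.5%) the 14 mice split by strain without overlap, with every C57BL/6J mouse above every A/J mouse in 1457 (7.62%) and the reverse in 1695 (8.87%). The median log2 fold change over all genes was 0.00. These shares are the background for every gene list below, in which a count near 22.9% and 21.5% of the members is no more than genes in general showed. In the 3 C57BL/6J and 4 A/J mice of cohort 2 alone, 5882 of 16070 genes tested were called, 18.1% higher in C57BL/6J and 18.5% in A/J. Of the 7839 genes called in all mice and tested there, 4842 were called again in the same direction and 0 in the opposite one.

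The share of genes that differed was uneven along the genome and was high where some gene families lie. Among 353 stretches of 5 Mb with at least 20 genes tested, the median share of genes called at 2-fold or more was 13.2%. The stretch chr4:60000001-65000000 (GRCm38), which holds the major urinary protein genes, had 33 of 69 genes called, or 47.8%, with 24 of them higher in C57BL/6J. The stretch chr1:170000001-175000000, which holds the interferon-inducible Ifi200 family of DNA sensors, had 33 of 94 called, or 35.1%, with 25 higher in C57BL/6J. Within it, Mndal (chr1:173849126-173942491) lay at 17.7 to 27.04 CPM (median 20.5) in C57BL/6J and 0.263 to 0.543 CPM (median 0.490) in A/J, and its log2 fold change was 5.64 ± 0.22 (adjusted p = 1.05e-38). The neighbouring Ifi202b (chr1:173962568-173982744) went the other way, with 5 counts in all C57BL/6J mice together and 2.66 to 6.08 CPM (median 3.90) in A/J, a ratio of 343 (exact 95% counting interval 147 to 1060).

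The lipid droplet genes were higher in C57BL/6J, and most of all the CIDE genes, whose proteins join lipid droplets and drive their growth. Of 21 PPAR gamma targets and lipid droplet genes measured, 12 were called higher in C57BL/6J and 0 in A/J, and the median log2 fold change was 0.65. In cohort 2 alone 11 were higher in C57BL/6J and 1 in A/J, and without C57BL/6J mouse 3 on WD and mouse 2 on CD, which stood apart from their groups, 13 and 0. Cidea lay at 2.40 to 36.7 CPM (median 15.7) in C57BL/6J and at 0.0244 to 0.125 CPM (median 0.0715) in A/J. The lowest C57BL/6J mouse was still above every A/J mouse, and the log2 fold change was 7.54 ± 1.08 (adjusted p = 1.10e-08). Cidec (chr6:113424634-113435760), which is also called Fsp27, lay at 66.3 to 195 CPM (median 142) and 3.61 to 8.85 CPM (median 4.61). Again the strains did not overlap, and the log2 fold change was 4.80 ± 0.55 (adjusted p = 7.41e-12).

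Other genes of the droplet surface and of lipid storage differed by less. Plin2, the coat protein found on most hepatocyte droplets, lay at 544 to 935 CPM (median 775) in C57BL/6J and 215 to 450.1 CPM (median 293) in A/J, without overlap, and had a log2 fold change of 1.38 ± 0.29 (adjusted p = 6.03e-05). Fabp4, a fatty acid carrier of adipocytes and macrophages, lay at 12.3 to 28.5 CPM (median 23.7) and 5.62 to 8.80 CPM (median 6.52), with a log2 fold change of 1.67 ± 0.23 (adjusted p = 4.12e-09). Its groups did not overlap either. Fitm1, which helps droplets to bud from the endoplasmic reticulum, lay at 8.02 to 38.8 CPM (median 30.9) and 3.78 to 8.17 CPM (median 5.20). Only C57BL/6J mouse 3 fell within the A/J range, and the log2 fold change was 2.34 ± 0.32 (adjusted p = 2.21e-09). Apoa4, a lipoprotein gene that rises with liver fat, lay at 271 to 1392 CPM (median 689) and 156 to 345 CPM (median 168), with a log2 fold change of 1.77 ± 0.36 (adjusted p = 2.95e-05) and a partial overlap. Hilpda, an inhibitor of triglyceride breakdown, had a log2 fold change of 1.02 ± 0.28 (adjusted p = 0.00172). The receptor gene Pparg itself lay at 9.23 to 36.0 CPM (median 23.1) and 8.02 to 19.9 CPM (median 13.7), and its log2 fold change of 0.65 ± 0.23 (adjusted p = 0.0140) became -0.22 in cohort 2 alone (adjusted p = 0.612). It was not called without A/J mouse 3, with 0.51 (adjusted p = 0.0674), or without A/J mouse 6, with 0.56 (adjusted p = 0.051). Cd36, the fatty acid transporter, was not called, with a log2 fold change of 0.26 ± 0.22 (adjusted p = 0.346). Of the 3 adipocyte markers measured, 1 was called higher in C57BL/6J and 0 in A/J. Adipoq and Plin1, which define fat cells, were at or below 1.53 CPM in all 14 mice and were not called. The third, Cfd, is the adipsin gene of fat cells. It lay at 2.80 to 149.6 CPM (median 27.8) in C57BL/6J and 0.270 to 0.877 CPM (median 0.710) in A/J, with a log2 fold change of 5.55 ± 0.95 (adjusted p = 1.04e-06). The summed level of the 3 markers was 5.20 to 149.8 CPM in C57BL/6J and 0.498 to 1.36 CPM in A/J, and their part in the lipid droplet genes was not tested.

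**Figure D1:**
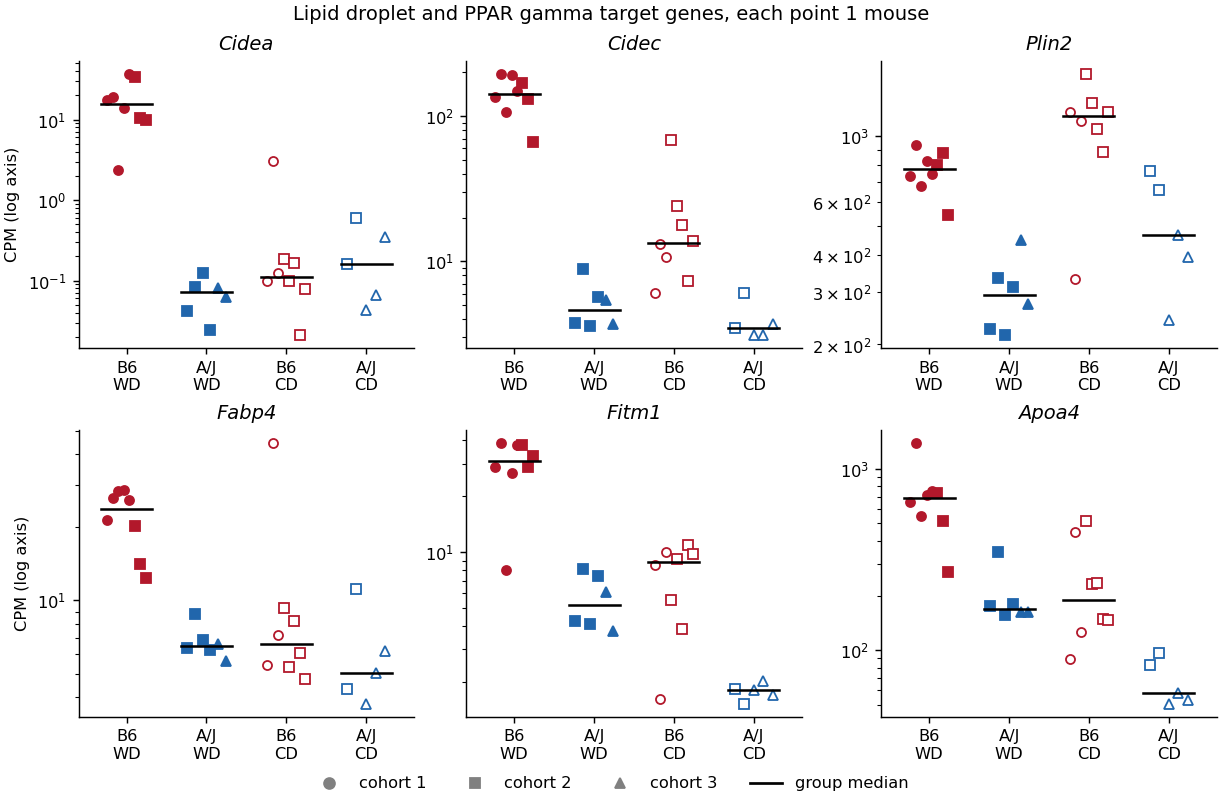
CPM of 6 lipid droplet and PPAR gamma target genes (log axis) in each mouse of C57BL/6J (B6) and A/J on WD (filled) and CD (open), with the cohort as the shape of the point and a line at the group median. On WD every C57BL/6J mouse lies above every A/J mouse for Cidea, Cidec, Plin2, and Fabp4, and for Cidea the groups on CD share the low range.

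The enzymes that make fatty acids and triglyceride did not share this direction. Of 23 measured, 2 were called higher in C57BL/6J and 4 in A/J, with a median log2 fold change of -0.07. Lpin1, a phosphatidate phosphatase and a coactivator of fat oxidation, lay at 117 to 262 CPM (median 163) in C57BL/6J and 47.2 to 75.2 CPM (median 60.4) in A/J without overlap and had a log2 fold change of 1.58 ± 0.39 (adjusted p = 5.12e-04). Dgat2, which attaches the last fatty acid to triglyceride, went the other way. It lay at 305 to 566 CPM (median 506) in C57BL/6J and 712 to 969.6 CPM (median 879.5) in A/J, also without overlap, and its log2 fold change was -0.85 ± 0.10 (adjusted p = 2.26e-11). Scd1, the desaturase of stearic acid, was not called, with a log2 fold change of 0.31 ± 0.30 (adjusted p = 0.435), and neither was Fasn, the fatty acid synthase, with 0.42 ± 0.29 (adjusted p = 0.248). Of 31 genes of fatty acid oxidation and ketogenesis, 3 were higher in C57BL/6J and 8 in A/J, with a median of -0.18. The acyl-CoA thioesterase gene Acot3 had a log2 fold change of -2.80 ± 0.56 (adjusted p = 2.60e-05). Within the Cyp4a family of fatty acid hydroxylases, Cyp4a12b lay at 24.4 to 158 CPM (median 96.2) in C57BL/6J and 0.646 to 3.76 CPM (median 1.99) in A/J, while Cyp4a32 had a log2 fold change of -3.07 ± 0.36 (adjusted p = 1.12e-11). These paralogs are near copies of each other, so their separate counts are uncertain. Of 23 genes of apolipoproteins and lipoprotein handling, 3 were higher in C57BL/6J and 7 in A/J, with a median of -0.13. Tm6sf2, which helps to load very-low-density lipoprotein with lipid, had a log2 fold change of -1.01 ± 0.12 (adjusted p = 5.89e-11).

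The sterol genes were mixed. Of 20 enzymes of cholesterol synthesis, 1 was called higher in C57BL/6J and 5 (25%) in A/J, near the 21.5% of all genes, with a median log2 fold change of -0.11. Without A/J mouse 6, 3 were higher in A/J. In cohort 2 alone 2 of the 20 were higher in C57BL/6J and 9 in A/J, with a median of -0.24. The shares of all genes in that cohort were 18.1% and 18.5%. Cyp51, the lanosterol demethylase, lay at 36.6 to 45.5 CPM (median 41.1) in C57BL/6J and 13.1 to 23.4 CPM (median 15.9) in A/J, with a log2 fold change of 1.32 ± 0.22 (adjusted p = 3.94e-07). Fdft1, the squalene synthase, lay at 33.7 to 65.6 CPM (median 47.4) and 80.6 to 90.6 CPM (median 82.4), and its log2 fold change was -0.82 ± 0.17 (adjusted p = 4.57e-05). The strains did not overlap for either gene, although both enzymes serve the same pathway. Of 20 genes of sterol regulation, uptake, and efflux, 2 were higher in C57BL/6J and 9 (45.0%) in A/J, with a median of -0.14. Npc1, which moves cholesterol out of lysosomes, had a log2 fold change of -1.14 ± 0.09 (adjusted p = 4.34e-19).

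Among the bile acid genes the largest difference was in Cyp7a1, the rate-limiting enzyme of bile acid synthesis. Cyp7a1 (chr4:6265612-6275633) lay at 46.6 to 139 CPM (median 76.5) in C57BL/6J and 216 to 867 CPM (median 654) in A/J. The strains did not overlap, and the log2 fold change was -2.92 ± 0.55 (adjusted p = 7.07e-06). Akr1d1, the reductase of bile acid intermediates, had a log2 fold change of -1.06 ± 0.21 (adjusted p = 2.35e-05), and Slc10a1, which takes bile acids up from blood, had -0.92 ± 0.19 (adjusted p = 3.29e-05). Abcb11, the pump that exports bile salts into bile, was higher in C57BL/6J, with a log2 fold change of 0.50 ± 0.11 (adjusted p = 1.89e-04). Cyp8b1, the enzyme that makes cholic acid, was not called (-0.16 ± 0.27, adjusted p = 0.675). Of the 21 genes measured, 6 were higher in C57BL/6J and 7 in A/J, with a median of -0.04.

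**Figure D2:**
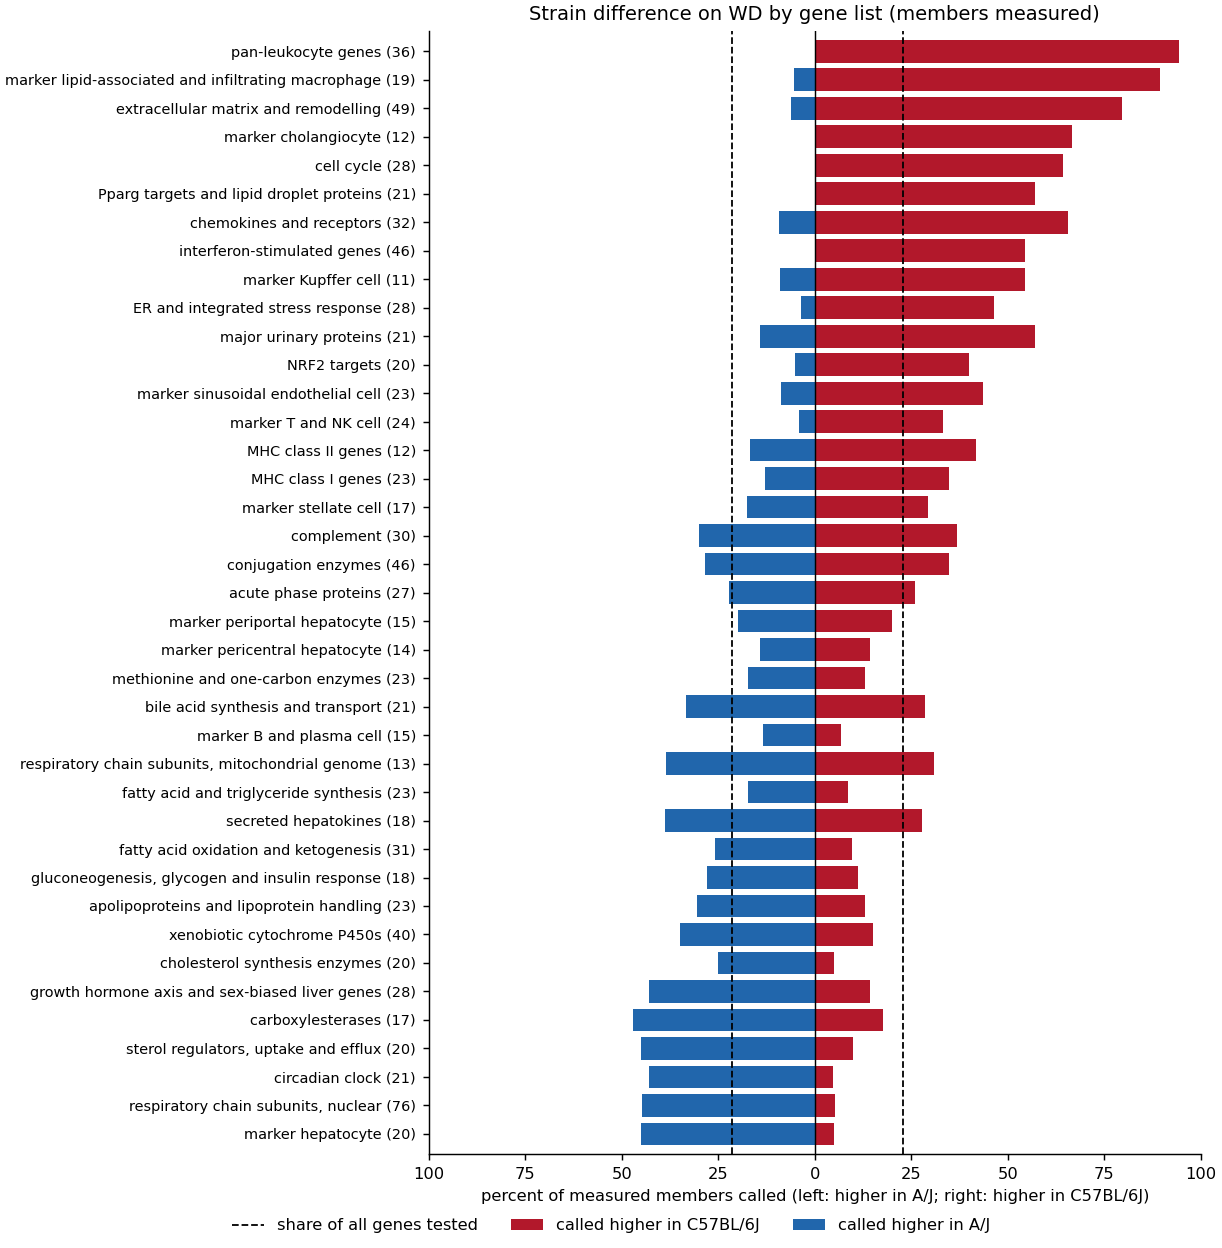
Share of the measured members of each gene list shown that were called higher in C57BL/6J (bars to the right) or in A/J (bars to the left) on WD, in percent, with the number of members in brackets and dashed lines at the shares over all genes tested (22.9% and 21.5%). The label checks and the markers of adipocytes, skeletal muscle, erythroid cells, exocrine pancreas, and neutrophils are left out. Leukocyte, macrophage, and matrix lists reach farthest to the right, and carboxylesterases, sterol regulators, hepatocyte markers, and nuclear respiratory chain genes farthest to the left.

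Several liver genes that are known to be higher in female than in male mice were at far higher levels in the A/J males than in the C57BL/6J males. Of 28 genes of the growth hormone axis and of sex-biased expression, 12 were called higher in A/J and 4 in C57BL/6J, with a median log2 fold change of -0.60. The strains did not overlap in 11 of the 12, all except Igf1. In cohort 2 alone 12 of 26 were higher in A/J and 7 in C57BL/6J. Cyp2b9 (chr7:26173411-26210661), a female-predominant P450, lay at 0.929 to 121 CPM (median 6.04) in C57BL/6J and 286 to 585 CPM (median 541) in A/J, with a log2 fold change of -5.79 ± 0.58 (adjusted p = 2.06e-14). Its neighbour Cyp2b13 (chr7:26061497-26096197), also female-predominant, lay at 0 to 2.27 CPM (median 0.137) and 16.3 to 293 CPM (median 154), with a log2 fold change of -9.07 ± 0.92 (adjusted p = 4.58e-14). For both genes the highest C57BL/6J mouse was below the lowest A/J mouse, and the C57BL/6J mice were themselves widely spread.

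Cux2, a transcription factor expressed in female liver, lay at 0.357 to 1.06 CPM (median 0.513) in C57BL/6J and 2.05 to 31.1 CPM (median 15.4) in A/J, with a log2 fold change of -4.41 ± 0.60 (adjusted p = 1.81e-09). Cyp2a4, a steroid hydroxylase, lay at 0.186 to 49.6 CPM (median 6.28) and 250.2 to 549.5 CPM (median 420.1), with a log2 fold change of -6.28 ± 0.78 (adjusted p = 1.04e-10). Prlr, the prolactin receptor gene, is also higher in females and lay at 32.7 to 75.1 CPM (median 59.7) and 144 to 234 CPM (median 199), with a log2 fold change of -1.85 ± 0.35 (adjusted p = 8.73e-06). No mouse overlapped between the strains in any of these genes. Of genes known to be higher in males, Elovl3, a fatty acid elongase, lay at 32.6 to 185 CPM (median 86.5) in C57BL/6J and 10.6 to 37.1 CPM (median 22.4) in A/J with a slight overlap, and its log2 fold change was 2.17 ± 0.59 (adjusted p = 0.00150). Without a count filter Elovl3 was not called (adjusted p = 0.0909). Hsd3b5 and Cyp4a12a, which are male-predominant too, were not called, with log2 fold changes of -1.32 ± 0.96 (adjusted p = 0.271) and -0.58 ± 0.35 (adjusted p = 0.175). In cohort 2 alone Hsd3b5 was higher in C57BL/6J, with 2.54 (adjusted p = 0.0471). C4a, another sex-biased gene of the list, went the other way from Elovl3, with a mean of 54.6 CPM in C57BL/6J and 285 CPM in A/J. Of the growth hormone axis itself, Ghr, the hormone's receptor gene, and Igf1, its main target, were higher in A/J, with log2 fold changes of -0.63 ± 0.09 (adjusted p = 4.00e-08) and -0.51 ± 0.12 (adjusted p = 1.72e-04). Stat5b and Socs2, which carry and damp its signal, were not called.

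**Figure D3:**
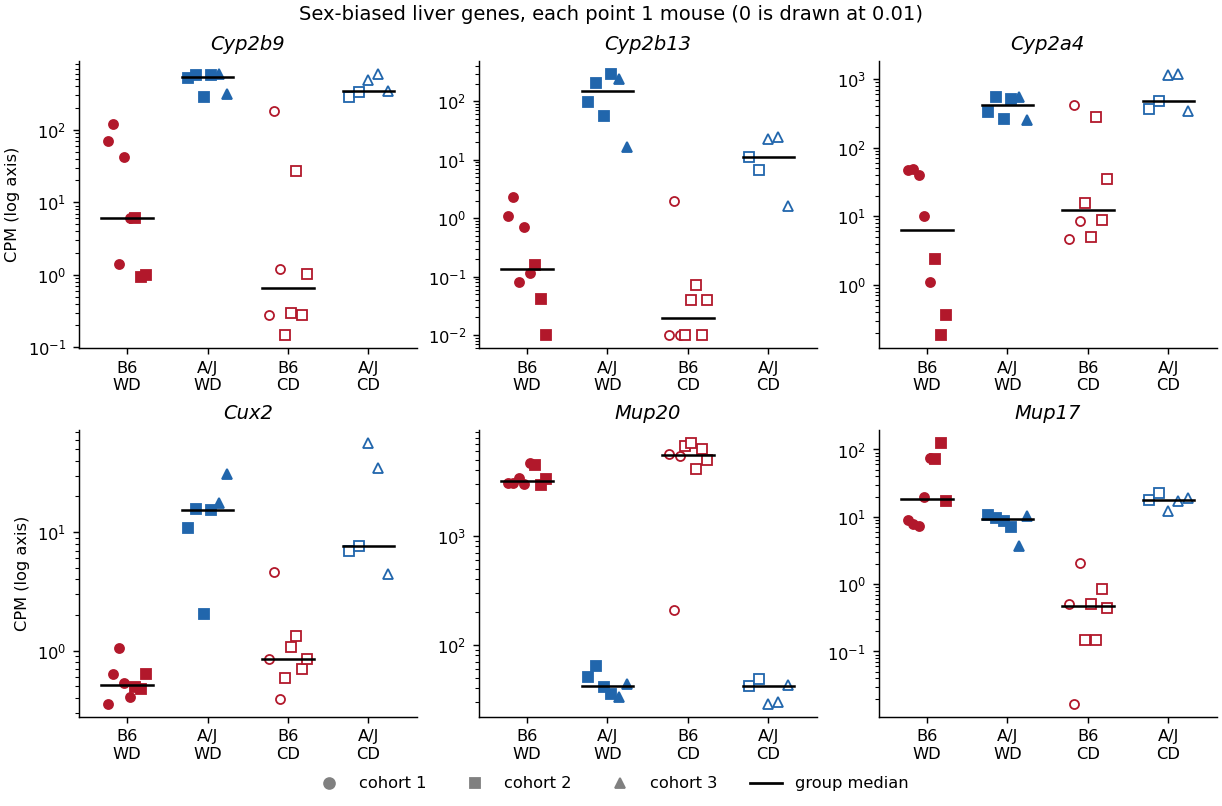
CPM of 4 genes known to be higher in female mouse liver (Cyp2b9, Cyp2b13, Cyp2a4, and Cux2) and of the major urinary protein genes Mup20 and Mup17 (log axis, 0 drawn at 0.01) in each mouse of C57BL/6J (B6) and A/J on WD (filled) and CD (open), with the cohort as the shape and a line at the group median. Every A/J mouse on WD lies above every C57BL/6J mouse on WD for the 4 genes, and Mup17 has its lowest values in C57BL/6J on CD.

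The position of A/J among all 7 strains of the series on WD shows whether such a level was shared. The mean of Cyp2b9 was 472 CPM in A/J, 31.0 in C57BL/6J, 3.95 in DBA/2J, and at most 0.456 in each of the other 4 strains. The mean of Cyp2b13 was 152 CPM in A/J and at most 0.557 CPM in each of the other 6 strains. For Cux2, Cyp2a4, and Prlr A/J also had the highest mean of the 7 strains, with 15.4, 408, and 195 CPM, although Cyp2a4 reached 280 CPM in PWK/PhJ. For Cidea and Cidec the highest mean of the 7 strains was that of C57BL/6J. Its mean of Cidea was 18.0 CPM, against 4.57 CPM in DBA/2J and at most 0.0978 CPM in each of the other 5 strains, and its mean of Cidec was 143 CPM, against 21.2 CPM in PWK/PhJ, the next highest. These means describe the 7 groups and were not tested against each other.

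The xenobiotic P450s as a group leaned to A/J. Of 40 measured, 6 were called higher in C57BL/6J and 14 in A/J, with a median log2 fold change of -0.36. In cohort 2 alone the counts were 11 and 12 of 37, which is near equal. Besides the genes above, Cyp3a44 lay at 0 to 0.258 CPM (median 0.0875) in C57BL/6J and 3.54 to 28.5 CPM (median 14.0) in A/J, and Cyp2c39, which acts on retinoic acid, at 2.44 to 6.69 CPM (median 3.75) and 262 to 711 CPM (median 515). Their log2 fold changes were -7.43 ± 0.89 (adjusted p = 3.19e-11) and -6.93 ± 0.59 (adjusted p = 1.58e-17), and no mouse overlapped. In the other direction, Cyp2c23, which makes epoxides of arachidonic acid, had a log2 fold change of 1.95 ± 0.13 (adjusted p = 1.10e-23), and Cyp3a13 had 1.76 ± 0.14 (adjusted p = 2.00e-19). The conjugation enzymes split nearly evenly, with 16 of 46 higher in C57BL/6J and 13 in A/J. The glucuronosyltransferase gene Ugt1a9 lay at 3.86 to 25.3 CPM (median 11.7) in C57BL/6J and 166 to 292 CPM (median 259) in A/J, with a log2 fold change of -4.45 ± 0.19 (adjusted p = 3.63e-36), and Ugt2b38 had one of 4.51 ± 1.03 (adjusted p = 1.76e-04). The glutathione transferase gene Gsta1 had a log2 fold change of 4.28 ± 0.75 (adjusted p = 1.83e-06). Of 17 carboxylesterases, which split esters of drugs and lipids, 3 were higher in C57BL/6J and 8 in A/J. Ces1b had a log2 fold change of -3.25 ± 0.11 (adjusted p = 4.23e-44) and Ces2c of 2.42 ± 0.32 (adjusted p = 8.60e-10). The P450, Ugt2b, and carboxylesterase families hold near-identical paralogs, so that the counts of single members are uncertain.

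The major urinary proteins, which carry pheromones into urine, were among the genes with the largest differences. Of 21 measured, 12 were called higher in C57BL/6J and 3 in A/J, with a median log2 fold change of 3.47. The counts in cohort 2 alone were 15 and 2 of 17. Mup20 (chr4:62050234-62054158), also called darcin, lay at 2946 to 4629 CPM (median 3186) in C57BL/6J and 32.9 to 64.2 CPM (median 42.2) in A/J, with a log2 fold change of 6.30 ± 0.36 (adjusted p = 1.94e-27). Mup11 lay at 1.76 to 266 CPM (median 35.8) and 0.0202 to 0.122 CPM (median 0.0723), with a log2 fold change of 8.28 ± 2.90 (adjusted p = 0.0149). The strains did not overlap for either gene, although the C57BL/6J mice differed more among themselves in Mup11, which was not called when only the mice compared were fitted (adjusted p = 0.139). Mup15 had 4 counts in all 6 A/J mice together and 1.64 to 62.5 CPM (median 7.11) in C57BL/6J, a ratio of 1180 (exact 95% counting interval 461 to 4332). Mup3 was not called, with a log2 fold change of 0.35 ± 0.45 (adjusted p = 0.549). It was called higher in C57BL/6J in cohort 2 alone, with 1.36 (adjusted p = 0.00131). The same held without C57BL/6J mouse 3 on WD and mouse 2 on CD, with 0.67 (adjusted p = 0.0106). Mup2 was 1 of the 3 higher in A/J, with a log2 fold change of -1.50 ± 0.44 (adjusted p = 0.00364). Most genes of this cluster are near copies, and reads that fit several places were not counted, so these values describe the reads assigned to each copy of the reference.

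Leukocyte genes were higher in C57BL/6J nearly throughout. Of 36 genes expressed in all or most leukocytes, 34 were called higher in C57BL/6J and 0 in A/J, with a median log2 fold change of 0.89, and in cohort 2 alone 16 and 1. With cohort as a term in the fit the counts were 31 and 1. Ptprc, the gene of the common leukocyte antigen CD45, lay at 21.2 to 43.2 CPM (median 25.6) in C57BL/6J and 8.55 to 25.4 CPM (median 15.9) in A/J, with a log2 fold change of 0.84 ± 0.16 (adjusted p = 1.06e-05). The strains overlapped, since A/J mouse 3 was high, and in cohort 2 alone Ptprc was not called, with 0.45 (adjusted p = 0.0934). Summed over the list, the level was 581 to 928 CPM in C57BL/6J and 296 to 675 CPM in A/J, with the highest A/J value in mouse 3. Cd52 and Fcgr1, the genes of a lymphocyte and monocyte surface antigen and of the high-affinity IgG receptor, had log2 fold changes of 1.50 ± 0.18 (adjusted p = 7.12e-11) and 1.44 ± 0.18 (adjusted p = 6.03e-11). Of 32 chemokines and receptors, 21 were higher in C57BL/6J and 3 in A/J, with a median of 1.02, and in cohort 2 alone 15 and 2 of 30. Their summed level went the other way, with 432 to 591 CPM (median 526) in C57BL/6J and 582 to 760 CPM (median 605) in A/J. Ccl2, which attracts monocytes, lay at 2.73 to 7.82 CPM (median 5.10) and 0.996 to 2.46 CPM (median 1.46) without overlap, with a log2 fold change of 1.59 ± 0.27 (adjusted p = 7.59e-07). Ccl27a and Cxcl14 had log2 fold changes of 3.24 ± 0.21 (adjusted p = 2.72e-24) and 3.45 ± 0.71 (adjusted p = 3.81e-05).

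The macrophage genes differed in size by subset. Of 19 genes of lipid-associated and infiltrating macrophages, cells that gather in fatty liver, 17 were higher in C57BL/6J and 1, Atp6v0d2, in A/J, with a median log2 fold change of 1.51. Their summed level was 533 to 1666 CPM in C57BL/6J and 415 to 696 CPM in A/J. Trem2, the lipid receptor that defines these cells, lay at 1.22 to 15.4 CPM (median 4.73) in C57BL/6J and 0.747 to 2.10 CPM (median 1.26) in A/J, with a log2 fold change of 1.87 ± 0.43 (adjusted p = 1.83e-04). Gpnmb, a glycoprotein of the same cells, lay at 3.45 to 104 CPM (median 30.2) and 2.22 to 11.0 CPM (median 5.56), with a log2 fold change of 2.08 ± 0.54 (adjusted p = 9.65e-04). Lgals3, the galectin-3 gene, lay at 16.0 to 45.5 CPM (median 26.0) and 4.07 to 13.9 CPM (median 7.78), with a log2 fold change of 1.79 ± 0.26 (adjusted p = 1.04e-08). Of these 3 genes the strains overlapped in Trem2 and Gpnmb, and they did not in Lgals3.

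The macrophage differences were smaller within cohort 2. In cohort 1 the 5 C57BL/6J mice lay between 4.53 and 15.4 CPM for Trem2, and in cohort 2 the 3 C57BL/6J mice lay between 1.22 and 4.30 CPM, against 0.934 to 2.10 CPM in the 4 A/J mice of that cohort. Within cohort 2 the log2 fold change of Trem2 was 0.41 (adjusted p = 0.506) and that of Gpnmb 0.30 (adjusted p = 0.742). That of Lgals3 was 1.09 (adjusted p = 0.00646), and it was called. Over the list, 8 of 19 genes were higher in C57BL/6J and 2 in A/J within cohort 2, with a median of 0.41. With cohort as a term in the fit of all mice, 12 were higher in C57BL/6J and 1 in A/J, with a median of 1.14. Without C57BL/6J mouse 3 on WD and mouse 2 on CD the counts were 17 and 1, as in all mice.

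Genes of resident Kupffer cells were mixed. Of 11 measured, 6 were higher in C57BL/6J and 1 in A/J, and the summed level was 476 to 930 CPM in C57BL/6J and 298 to 699 CPM in A/J. Adgre1, which encodes the F4/80 antigen, lay at 35.9 to 129 CPM (median 44.2) in C57BL/6J and 12.1 to 31.8 CPM (median 21.0) in A/J without overlap, with a log2 fold change of 1.29 ± 0.21 (adjusted p = 4.13e-07). Marco, a scavenger receptor gene, had a log2 fold change of 2.16 ± 0.51 (adjusted p = 2.83e-04) and was not called when only the mice compared were fitted (adjusted p = 0.058). Clec4f, the lectin gene that marks Kupffer cells in mice, was not called (-0.23 ± 0.21, adjusted p = 0.391). Timd4, a marker of the Kupffer cells of embryonic origin, had a log2 fold change of -0.81 ± 0.34 (adjusted p = 0.0450). Its call was lost without any 1 of C57BL/6J mice 1, 2, 3, and 5 and A/J mice 1, 3, 4, and 5, with values down to -0.37 without C57BL/6J mouse 3 (adjusted p = 0.335). Neutrophil genes were low, with a summed level of at most 37.3 CPM in any mouse, and 5 of 10 were higher in C57BL/6J, 2 without A/J mouse 6, and 0 of 8 in cohort 2 alone. Of 24 T and NK cell genes 8 were higher in C57BL/6J, or 5 without A/J mouse 6, and 1 in A/J, and of 15 B and plasma cell genes 1 and 2. Cholangiocyte genes had 8 of 12 higher in C57BL/6J and 0 in A/J, with a median log2 fold change of 1.32, and 4 and 0 of 10 in cohort 2 alone. Without C57BL/6J mouse 3, 5 were higher in C57BL/6J. Their summed level was 44.2 to 122 CPM in C57BL/6J, where mouse 3 was highest, and 45.1 to 57.4 CPM in A/J.

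Most matrix genes were higher in C57BL/6J, although their summed level was not. Of 49 genes of the extracellular matrix and its remodelling, 39 were called higher in C57BL/6J and 3 in A/J, with a median log2 fold change of 1.02. The summed level was 3541 to 4699 CPM (median 3610) in C57BL/6J and 3774 to 4837 CPM (median 4036) in A/J. Fn1 held a large part of that sum, with a mean of 1366 CPM in C57BL/6J and 1960 CPM in A/J. Col1a1 (chr11:94936224-94953042), the gene of the main fibrillar collagen chain of scars, lay at 14.0 to 164 CPM (median 54.1) in C57BL/6J and 5.23 to 17.7 CPM (median 7.60) in A/J. The groups overlapped slightly, and the log2 fold change was 2.46 ± 0.42 (adjusted p = 9.89e-07). Col3a1, the collagen gene that accompanies it, lay at 43.1 to 336 CPM (median 123) and 23.7 to 43.6 CPM (median 32.2), with a log2 fold change of 1.78 ± 0.31 (adjusted p = 1.23e-06), which was 0.66 (adjusted p = 0.0663) and not called within cohort 2. Lox, the enzyme that crosslinks collagen, had a log2 fold change of 2.83 ± 0.54 (adjusted p = 9.27e-06), and Thbs1, the thrombospondin gene, 2.28 ± 0.35 (adjusted p = 8.83e-08). Fn1, the fibronectin gene, is mainly made by hepatocytes as a plasma protein and was higher in A/J (-0.52 ± 0.09, adjusted p = 3.05e-06), with -0.29 (adjusted p = 0.144) and no call within cohort 2.

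Within cohort 2 this group was smaller too. There 11 of 49 genes were higher in C57BL/6J and 4 in A/J, with a median of 0.40, against 18.1% and 18.5% of all genes in that cohort. Col1a1 lay between 14.0 and 41.5 CPM in the 3 C57BL/6J mice of cohort 2 and between 6.75 and 17.7 CPM in the 4 A/J mice, with a log2 fold change of 1.10 (adjusted p = 0.0676). In the 5 C57BL/6J mice of cohort 1 it lay between 53.7 and 164 CPM. With cohort as a term in the fit, 7525 genes were called in all. Of the 49 matrix genes, 32 were then higher in C57BL/6J and 3 in A/J, with a median of 0.77. Cohort 1 had no A/J mouse, so that fit draws on all groups of the series that span cohorts. The part of the cohort in the difference was not tested further. Markers of stellate cells, the main source of liver collagen, split, with 5 of 17 higher in C57BL/6J and 3 in A/J and a summed level of 356 to 454 CPM in C57BL/6J and 446 to 488 CPM in A/J. Without C57BL/6J mouse 3, A/J mouse 1, or A/J mouse 5, 3 of them were higher in C57BL/6J. Acta2, the smooth muscle actin gene of activated stellate cells, lay at 6.58 to 14.4 CPM (median 10.3) in C57BL/6J and 2.97 to 5.72 CPM (median 4.39) in A/J without overlap, with a log2 fold change of 1.27 ± 0.24 (adjusted p = 8.91e-06). Of 23 genes of sinusoidal endothelial cells 10 were higher in C57BL/6J and 2 in A/J, with a median of 0.17. Lyve1, a hyaluronan receptor gene, had a log2 fold change of 1.77 ± 0.21 (adjusted p = 1.12e-11).

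**Figure D4:**
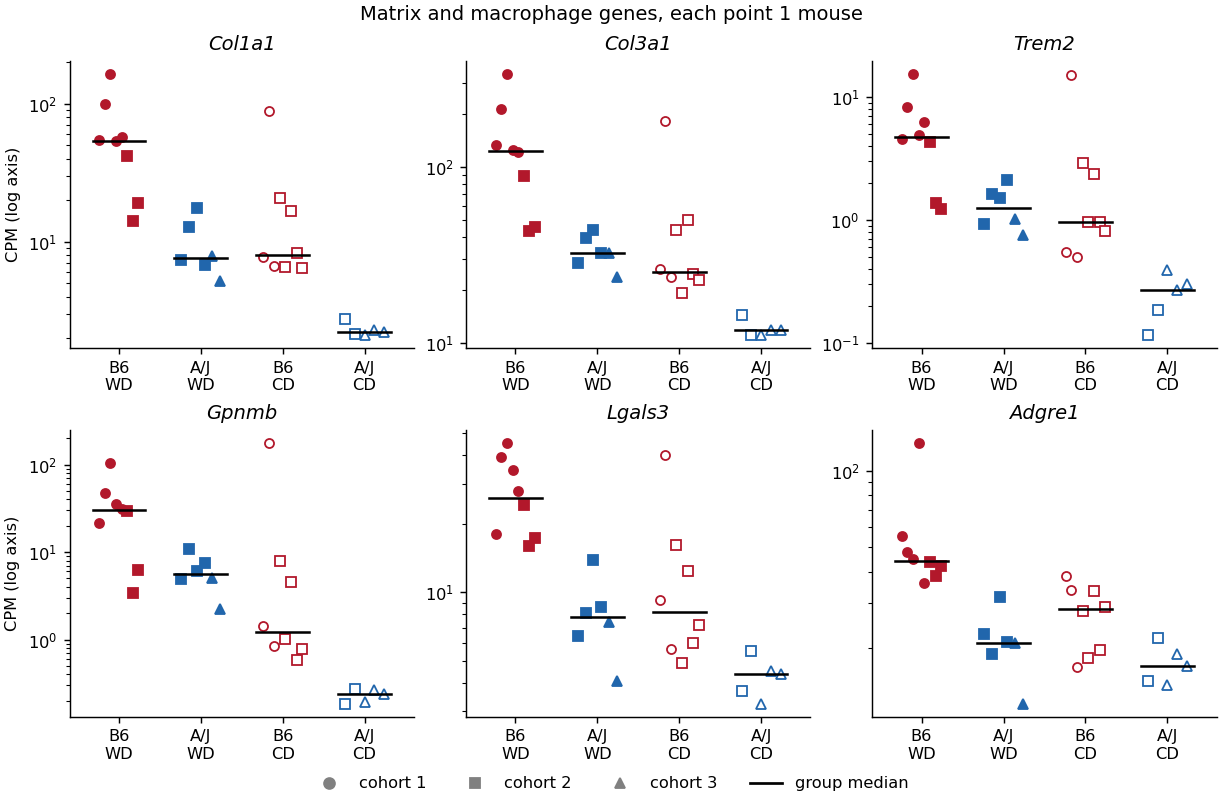
CPM of 2 collagen genes and 4 macrophage genes (log axis) in each mouse of C57BL/6J (B6) and A/J on WD (filled) and CD (open), with the cohort as the shape and a line at the group median. For Col1a1, Col3a1, Trem2, and Gpnmb the highest values on WD belong to C57BL/6J mice of cohort 1, and the C57BL/6J mice of cohort 2 lie nearer to A/J.

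Interferon-stimulated genes, which cells switch on after sensing viral or misplaced nucleic acids, were higher in C57BL/6J. Of 46 measured, 25 were called higher in C57BL/6J and 0 in A/J, with a median log2 fold change of 0.56. The lean was at least as large in cohort 2 alone, where 30 were higher in C57BL/6J and 0 in A/J. Rsad2, the antiviral enzyme viperin, lay at 11.5 to 24.4 CPM (median 16.3) in C57BL/6J and 3.84 to 9.46 CPM (median 7.07) in A/J, with a log2 fold change of 1.37 ± 0.28 (adjusted p = 3.37e-05). Ifit1, which binds foreign RNA, lay at 11.6 to 20.5 CPM (median 13.7) and 6.21 to 7.68 CPM (median 6.98), with a log2 fold change of 1.02 ± 0.31 (adjusted p = 0.00493). No mouse overlapped in either gene. Oas1a, an RNA sensor, Isg15, a ubiquitin-like modifier, and Ifi27l2a had log2 fold changes of 1.01 ± 0.27 (adjusted p = 0.00159), 0.80 ± 0.23 (adjusted p = 0.00257), and 1.48 ± 0.22 (adjusted p = 2.64e-08). Of the members not called, Ifih1 and Ddx58, which sense viral RNA, had log2 fold changes of 0.18 ± 0.10 (adjusted p = 0.140) and 0.18 ± 0.13 (adjusted p = 0.245).

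These genes are commonly driven by the factor ISGF3 through the interferon-stimulated response element. The core of that element, GAAA followed after any 2 bases by a further GAAA, or TTTC followed in the same way by TTTC on the other strand, was searched in the 250 bases before the start site. It occurred in 821 of 27025 RefSeq promoters of GRCm38.p6, or 3.04%. Of the 46 genes 32 had a promoter in that set, and 19 held the core. Among the 17 called genes with a promoter 11 held it, and among the 15 not called 8 held it. The windows of the 4 named genes that held it are shown, since they are the sequences through which the members are known to be linked. They are reference sequence from the C57BL/6J-derived assembly, and the A/J alleles were not read. Each is printed 5′ to 3′ on the gene's strand with a single core in capitals. The windows of Ifit1, Isg15, and Oas1a hold further matches to the core, which are left in lower case.
Rsad2, chr12:26456523-26456612 (-): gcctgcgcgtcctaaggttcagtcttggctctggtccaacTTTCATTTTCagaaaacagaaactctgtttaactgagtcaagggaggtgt
Ifit1, chr19:34640745-34640834 (+): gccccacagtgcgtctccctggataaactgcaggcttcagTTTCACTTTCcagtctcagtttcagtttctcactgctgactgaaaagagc
Isg15, chr4:156200847-156200936 (-): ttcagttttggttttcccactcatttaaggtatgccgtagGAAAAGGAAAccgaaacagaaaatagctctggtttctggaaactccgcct
Oas1a, chr5:120907526-120907585 (-): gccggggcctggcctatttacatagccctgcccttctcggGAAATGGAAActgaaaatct

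Other lists of immune genes held members called in both directions. Of 23 MHC class I genes 8 were higher in C57BL/6J and 3 in A/J, and H2-T22 and H2-T10 had log2 fold changes of 2.23 ± 0.10 (adjusted p = 8.58e-33) and -3.55 ± 0.15 (adjusted p = 6.33e-37). These loci differ in sequence between the haplotypes of the strains, and the reads were mapped to one of them. Of 12 MHC class II genes 5 (41.7%) were higher in C57BL/6J and 2 in A/J, with a median log2 fold change of 0.50. Without A/J mouse 3, 8 were higher in C57BL/6J. In cohort 2 alone 2 were higher in C57BL/6J and 1 in A/J. Of 30 complement genes 11 were higher in C57BL/6J and 9 in A/J. C6, a part of the membrane attack complex, lay at 119 to 319 CPM (median 247) in C57BL/6J and 27.8 to 83.7 CPM (median 36.1) in A/J without overlap, with a log2 fold change of 2.28 ± 0.21 (adjusted p = 1.76e-15). C3, the central component, was higher in A/J, with a log2 fold change of -0.59 ± 0.11 (adjusted p = 3.08e-06), which was -0.53 (adjusted p = 0.0568) and not called in cohort 2. Of 27 acute phase genes 7 were higher in C57BL/6J and 6 in A/J. Apcs, which encodes serum amyloid P, and Hamp2, a copy of the hepcidin gene, had log2 fold changes of -2.26 ± 0.33 (adjusted p = 1.30e-08) and -2.71 ± 0.40 (adjusted p = 3.20e-08). Saa1, a main acute phase gene, was not called (1.25 ± 0.69, adjusted p = 0.139). A/J mouse 3 was the highest of its group for Apcs, with 670.2 CPM, and for Saa1, with 412 CPM. Without that mouse Saa1 was called higher in C57BL/6J, with a log2 fold change of 1.80 (adjusted p = 0.0333).

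The nuclear genes of the respiratory chain were slightly higher in A/J in many members. Of 76 measured, 34 were called higher in A/J and 4 in C57BL/6J, with a median log2 fold change of -0.12. The differences were small, from -0.47 for Atp5g1, a subunit of the ATP synthase ring, to 0.39 for Cox7a2l. Atp5g1 had a log2 fold change of -0.47 ± 0.07 (adjusted p = 1.89e-08), and Cox7a2l, a factor that joins complexes III and IV and of which C57BL/6J is known to carry a short form, had 0.39 ± 0.06 (adjusted p = 4.44e-08). In cohort 2 alone 14 were higher in A/J and 3 in C57BL/6J, which for A/J is near the 18.5% of all genes in that cohort. The 13 genes of the mitochondrial genome split into 4 higher in C57BL/6J and 5 higher in A/J, with 3 higher in A/J once C57BL/6J mouse 3 was left out. Copies of mitochondrial sequence in the nuclear genome share reads with them, which makes their counts uncertain.

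Genes of the circadian clock leaned to A/J. Of 21 measured, 9 were called higher in A/J and 1, Clock, in C57BL/6J, with a median log2 fold change of -0.50. Per3, a member of the repressor arm, lay at 9.83 to 32.5 CPM (median 25.4) in C57BL/6J and 46.6 to 92.1 CPM (median 78.1) in A/J without overlap, with a log2 fold change of -1.76 ± 0.30 (adjusted p = 8.93e-07). The output factors Dbp and Hlf had log2 fold changes of -1.18 ± 0.42 (adjusted p = 0.0175) and -1.06 ± 0.17 (adjusted p = 2.10e-07), and the repressor gene Ciart -1.33 ± 0.34 (adjusted p = 8.70e-04). With cohort as a term Dbp was not called, with -0.72 (adjusted p = 0.178). Arntl, the activator that peaks when these genes are low, was not called (1.09 ± 0.61, adjusted p = 0.137). A/J mouse 5, of cohort 3, had 7.84 CPM of Arntl, against 1.5 CPM in the next highest mouse of its group. In cohort 2 alone Arntl was called higher in C57BL/6J, with 2.38 (adjusted p = 1.52e-05). These genes cycle within the day, and the hour at which each mouse was killed is not in the labels, although the study's methods place all of them within a few hours of an afternoon. The E-box core CACGTG, to which the activators bind, occurred in the same window of 1634 of 27025 promoters (6.05%) and in 5 of the 18 clock genes with a promoter. It was in 2 of the 7 genes called higher in A/J that had a promoter and in 3 of the 10 not called. The windows of Ciart and Tef, the 2 genes higher in A/J with the core, are printed in the same way.
Ciart, chr3:95882299-95882384 (-): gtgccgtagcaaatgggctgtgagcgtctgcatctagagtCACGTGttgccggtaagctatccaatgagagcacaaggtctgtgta
Tef, chr15:81802506-81802591 (+): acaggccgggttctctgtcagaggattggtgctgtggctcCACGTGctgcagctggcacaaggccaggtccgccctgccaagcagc

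Among genes of stress and growth, 13 of 28 genes of the endoplasmic reticulum and integrated stress response were higher in C57BL/6J and 1 in A/J, with a median log2 fold change of 0.41. Without A/J mouse 6, 8 were higher in C57BL/6J. Sdf2l1, a chaperone partner, had a log2 fold change of 1.17 ± 0.24 (adjusted p = 4.51e-05), and Atf3, a stress transcription factor, 1.86 ± 0.46 (adjusted p = 6.18e-04). Within cohort 2 Atf3 was not called, with 0.78 (adjusted p = 0.0576). Of 20 NRF2 targets 8 were higher in C57BL/6J and 1 in A/J, with a median of 0.33. Of 28 cell cycle genes 18 were higher in C57BL/6J and 0 in A/J, with a median of 0.65, while 10 and 1 were so in cohort 2 alone 6 and 0 with cohort as a term, and 11 in C57BL/6J without its mouse 3. Rrm2, a subunit of the reductase that supplies DNA precursors, lay at 5.63 to 8.26 CPM (median 6.32) in C57BL/6J and 0.872 to 2.55 CPM (median 1.71) in A/J, with a log2 fold change of 1.98 ± 0.22 (adjusted p = 3.45e-12). Ccnd1, the cyclin D1 gene, was not called (0.15 ± 0.26, adjusted p = 0.670).

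Smaller metabolic groups held a few large differences. Of 23 genes of methionine and one-carbon metabolism 3 were higher in C57BL/6J and 4 in A/J. Nnmt, which methylates nicotinamide, lay at 13.1 to 119 CPM (median 45.8) in C57BL/6J and 0.363 to 2.49 CPM (median 1.26) in A/J without overlap, with a log2 fold change of 5.21 ± 0.80 (adjusted p = 6.65e-08). Shmt1, the cytosolic serine hydroxymethyltransferase, was higher in A/J (-1.27 ± 0.13, adjusted p = 7.80e-14). Of 18 genes of gluconeogenesis, glycogen, and the insulin response 2 were higher in C57BL/6J and 5 in A/J. Pck1, an enzyme of gluconeogenesis, had a log2 fold change of 1.02 ± 0.30 (adjusted p = 0.00387). Of 18 secreted hepatokines 5 were higher in C57BL/6J and 7 in A/J. Enho, the adropin gene, had a log2 fold change of -3.37 ± 0.45 (adjusted p = 1.53e-09) and Tsku, the tsukushi gene, 2.32 ± 0.39 (adjusted p = 4.92e-07). Without C57BL/6J mouse 6 or mouse 7, 3 hepatokine genes were higher in C57BL/6J, and without A/J mouse 1 there were 2. Of 14 pericentral hepatocyte markers 2 were higher in each strain, and of 15 periportal ones 3 in each. The pericentral sum was 2881 CPM in C57BL/6J mouse 3, against a median of 10200 CPM in the group and 9813 to 11460 CPM in A/J.

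Some genes were close to silent in one strain. With at most 3 counts in every mouse of a strain and at least 50 in every mouse of the other, 16 genes were near 0 in C57BL/6J and 14 in A/J. Ifi44l, an interferon-induced gene, had 0 counts in C57BL/6J and 2.90 to 5.64 CPM (median 3.88) in A/J, at least 555-fold higher when 3 counts are taken as the floor over the group. Trim12a, of a family of restriction factors, had 1 count in A/J and 8.51 to 11.3 CPM (median 9.84) in C57BL/6J, a ratio of 2804 (exact 95% counting interval 503 to 110800). Olfr1033 and Olfr1034, olfactory receptor genes, were also near 0 in A/J. Since the reads of both strains were mapped to the C57BL/6J-derived reference, an absent count in A/J does not show an absent transcript.

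The largest differences in genes with good levels also included genes with near-identical copies. Rps3a3, a processed pseudogene of a ribosomal protein gene, lay at 0.244 to 0.483 CPM (median 0.346) in C57BL/6J and 55.1 to 62.6 CPM (median 59.4) in A/J, and Rpl26, a ribosomal protein gene, at 91.7 to 107 CPM (median 97.5) and 4.42 to 6.04 CPM (median 5.24). Both genes have copies elsewhere in the genome, and their counts are uncertain. Rps3a3 had a mean of 59.2 to 60.6 CPM in 4 of the 7 strains on WD and of 0.210 to 0.353 CPM in the other 3. Hba-a2, the second of a pair of alpha globin genes, had 0 counts in A/J, while its copy Hba-a1 was not called. Ephb2, a receptor tyrosine kinase gene, and Dhrs9, a retinol dehydrogenase gene, had log2 fold changes of 6.48 ± 0.84 (adjusted p = 4.81e-10) and 5.15 ± 0.74 (adjusted p = 1.38e-08). Cd300ld, a receptor gene of myeloid cells, had a log2 fold change of 5.02 ± 0.30 (adjusted p = 5.33e-26).

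On CD the strains differed in 7345 genes (38.4% of the 19110), 3505 higher in C57BL/6J (18.3%) and 3840 in A/J (20.1%). Of the 8493 genes called on WD, 5520 (65.0%) were called on CD in the same direction, which is 75.2% of the CD calls, and 16 in the opposite direction. A further 2957 genes were called on WD and not on CD, which does not by itself show a difference between the diets. The sex-biased genes differed on CD too. Cyp2b9 lay at 0.147 to 183 CPM (median 0.653) in C57BL/6J and 284 to 588 CPM (median 343) in A/J on CD, with a log2 fold change of -7.92 ± 0.87 (adjusted p = 1.45e-12). Of the 28 genes of that list, 16 were higher in A/J on CD and 0 in C57BL/6J. For the interferon-stimulated genes the counts on CD were 12 higher in C57BL/6J and 3 in A/J, for the matrix genes 28 and 3, for the clock genes 1 and 12, for the major urinary proteins 1 and 6 of 21 with a median log2 fold change of 0.20, and for the cholesterol synthesis enzymes 8 and 1. The summed level of the major urinary proteins on CD was 262.5 to 15080 CPM (median 11520) in C57BL/6J. In A/J it was 4338 to 5884 CPM (median 4862), so the counts and the median sum went opposite ways. Cyp7a1 was not called on CD, with a log2 fold change of -0.80 ± 0.56 (adjusted p = 0.262), but the difference between the diets was not called either (-2.12 ± 0.78, adjusted p = 0.226).

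The strain difference itself depended on diet in 125 genes (0.654%), 52 of them (0.272%) with a diet effect that was more positive in C57BL/6J and 73 (0.382%) in A/J. Cidea was 1 of them. On CD it lay at 0.0211 to 3.04 CPM (median 0.111) in C57BL/6J and 0.0434 to 0.595 CPM (median 0.162) in A/J, with a strain log2 fold change of -0.04 ± 1.19 (adjusted p = 0.985), and the difference between the diets was 7.58 ± 1.61 (adjusted p = 0.00736). The strain difference in Cidec was 2.00 ± 0.66 (adjusted p = 0.0112) on CD, and its difference between the diets was not called (2.79 ± 0.86, adjusted p = 0.115). Ccnd1 and Fdft1 had differences of -1.91 ± 0.39 (adjusted p = 0.00383) and -1.13 ± 0.25 (adjusted p = 0.0113). Mup17 lay at 0.0168 to 2.08 CPM (median 0.473) in C57BL/6J and 12.1 to 22.4 CPM (median 17.8) in A/J on CD, with a strain log2 fold change of -5.81 ± 0.93 (adjusted p = 2.74e-07) there and of 1.61 ± 0.42 (adjusted p = 0.00104) on WD, and the difference was 7.42 ± 1.02 (adjusted p = 3.76e-06). Mup12 and Mup1 had differences of 5.63 ± 0.88 (adjusted p = 4.08e-05) and 4.07 ± 0.98 (adjusted p = 0.0216). C4a, a sex-biased relative of complement C4, had a difference of 2.71 ± 0.46 (adjusted p = 1.96e-04), and Camk2b, a kinase gene, 2.19 ± 0.46 (adjusted p = 0.00581). Igha, the IgA heavy chain gene of plasma cells, had -3.72 ± 0.64 (adjusted p = 2.62e-04), Cib3, a calcium-binding protein gene, -3.65 ± 0.70 (adjusted p = 0.00205), and Ugt1a9 -1.32 ± 0.26 (adjusted p = 0.00312). C57BL/6J mouse 2 on CD stood apart from its group, with the 3.04 CPM of Cidea that are the highest value of that group. Of the 11 genes called here only Fdft1 kept its call for the difference under every setting. When only the 27 mice compared were fitted, Cidea was not called, with 7.56 (adjusted p = 0.23), nor were Ccnd1, Mup12, Mup1, C4a, Camk2b, Cib3, and Ugt1a9, with adjusted p from 0.0711 to 0.383. The strain difference of Mup17 on WD was not called in that fit (adjusted p = 0.097) or without a count filter (adjusted p = 0.374). For the difference between the diets, Mup17 (adjusted p = 0.258) and Mup12 (adjusted p = 0.671) were not called without a count filter, and C4a (adjusted p = 0.0977) and Igha (adjusted p = 0.0835) were not in cohort 2 alone. Camk2b was 1.33 by edgeR (adjusted p = 0.158) and 1.34 by DESeq2 (adjusted p = 0.207). Without C57BL/6J mouse 3 on WD, 317 genes were called for the difference, and without both mice 383. The call for Cidea was also made without them.

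**Figure D5:**
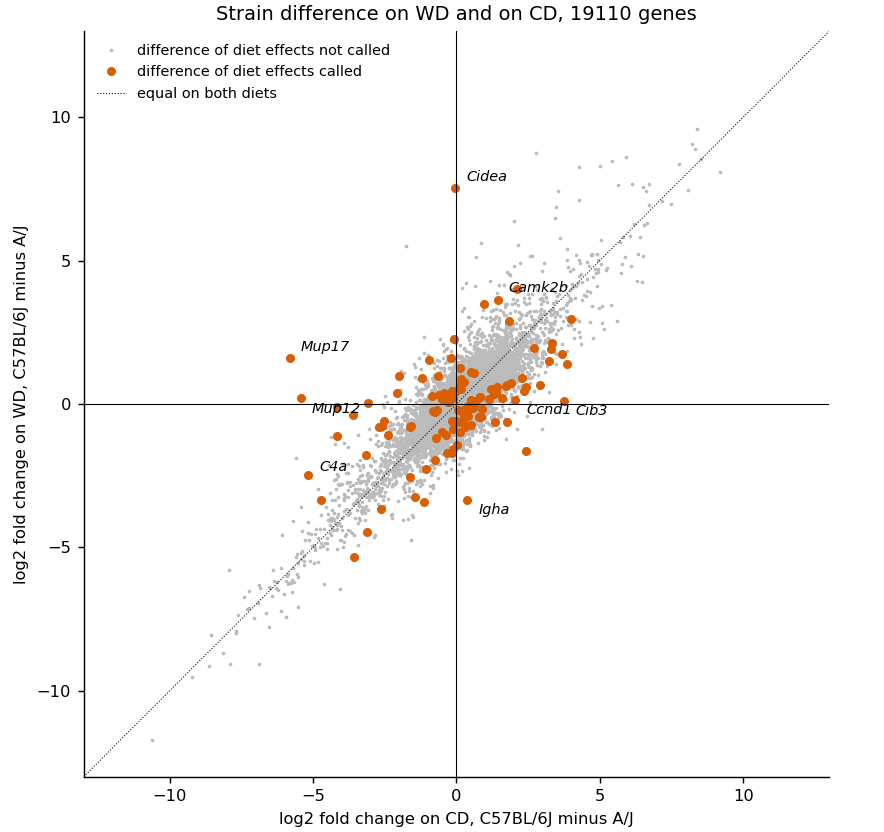
Log2 fold change between C57BL/6J and A/J on WD (vertical axis) against that on CD (horizontal axis) for the 19110 genes, with orange points for the 125 genes whose strain difference depended on diet and a dotted line where the diets give equal values. Most points lie along the line, Cidea lies near 0 on CD and at 7.54 on WD, and Mup17 lies at -5.81 on CD and 1.61 on WD.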

How the data were processed

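The deposited table held counts of reads per gene for 93 mice. Per the labels and the study's methods, the authors made mRNA libraries from liver with a SMARTER kit, sequenced them on a BGISEQ-500, and mapped the reads with STAR 2.7.1a to GRCm38 (mm10), which derives from C57BL/6J. The strand setting of the counting and the annotation release are not given in the sources used here. Of the 53465 genes listed, 53360 were paired with GENCODE M21 for names and positions.

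From these counts, genes were kept with filterByExpr of edgeR 4.0.16 at a minimum count of 10, scaled by TMM factors, and fitted with limma-voom (limma 3.58.1, R 4.3.3), with 1 mean for each of the 14 strain and diet groups of all 93 mice. The contrasts were C57BL/6J minus A/J on WD, the same on CD, and their difference. P-values were adjusted by Benjamini and Hochberg over the 19110 genes, with a threshold of 0.05. CPM were taken on TMM-scaled library sizes. Nothing in the labels says that mice came from separate cages or litters, so the p-values measure the spread between these mice. Shares of reads and RNA labels were compared by exact permutation tests over the 3003 splits of the 14 mice, the smallest possible p being 0.000666. Intervals of count ratios are exact and cover counting error only. The steps were tested on simulated data first.

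The 45 gene lists, with 987 genes, and the tests were chosen with earlier results of these data known, and lists are described by counts and medians with no set test. Named genes were the label checks, the largest called differences without overlap of the mice in each direction at a mean log2 CPM of at least 1, the called members of each list with the largest fold changes with its best known or uncalled members, the largest and smallest called differences of the diet effects, and genes with at most 3 counts in every mouse of one strain and at least 50 in every mouse of the other. Not every candidate is described, and a few genes are not reported here. Of the 122 named genes, 35 overlap a gene on the opposite strand, and as the strand setting is not stated, reads of such pairs cannot be told apart. Results were recomputed under 25 other settings (edgeR's quasi-likelihood test, DESeq2 1.42.0, upper-quartile factors, other count filters, the compared mice alone, cohort as a term, cohort 2 alone, the RNA integrity number as a covariate, quality weights, each of the 14 mice left out, and, chosen after seeing the data, both mice that stood apart left out). Promoter sequences are from RefSeq (GRCm38.p6).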

Additional observations from a re-analysis of the deposited data

Results flagged for a closer look

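In each group of 8 or 6 mice, the level of every named gene was examined for a mouse whose gap to the nearest other was large against the range of its group (Dixon's 95% critical value). Of 244 pairs of a gene and a group, 32 (13.1%) had such a mouse. Of the 32, 11 were C57BL/6J mouse 3 and 10 were A/J mouse 3. The critical value stands for about 1 in 20 only with independent, normally distributed values, which CPM of chosen genes need not be. The share was therefore not read as an excess.

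C57BL/6J mouse 3 was the lowest of its group in the hepatocyte genes Dgat2 (305 CPM) and Ghr (291 CPM) and in Fitm1 (8.02 CPM). It was the highest in Gpnmb (104 CPM), Ccnd1 (115 CPM), Dhrs9 (34.4 CPM), Cib3 (22.7 CPM), Enho (6.1 CPM), Igha (5.97 CPM), Adipoq (1.53 CPM), and Cux2 (1.06 CPM). A/J mouse 3 was the highest of its group in the acute phase and complement genes C3 (12210 CPM), Apcs (670 CPM), and Saa1 (412 CPM). It was also the highest in H2-Ea-ps (92.99 CPM), Igha (39.9 CPM), Cd52 (16.3 CPM), Marco (10.9 CPM), Fcgr1 (6.37 CPM), and Oas1a (5.45 CPM), and the lowest in Shmt1 (259 CPM).

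Among the other mice, C57BL/6J mouse 4 was high in Adgre1 (129 CPM), Marco (88.5 CPM), and Cd300ld (24.4 CPM), mouse 7 in Mup15 (62.5 CPM) and Ifit1 (20.5 CPM), and mouse 2 in Apoa4 (1392 CPM). Mouse 6 held the single H2-Ea-ps count of its group (0.0198 CPM). In A/J, mouse 2 was high in Apoa4 (345 CPM), mouse 5 in Arntl (7.84 CPM), and mouse 6 in Trim12a (0.0208 CPM, the single count of its group), and mouse 6 was low in Lyve1 (5.08 CPM).

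The effect of diet differed between the strains in 12 of the named genes by the interaction term of limma-voom, with the difference given as C57BL/6J minus A/J on the log2 scale. It was positive for Cidea (7.58, adjusted p = 0.00736), Mup17 (7.42, adjusted p = 3.76e-06), Mup12 (5.63, adjusted p = 4.08e-05), Mup1 (4.07, adjusted p = 0.0216), C4a (2.71, adjusted p = 0.000196), and Camk2b (2.19, adjusted p = 0.00581). It was negative for Igha (-3.72, adjusted p = 0.000262), Cib3 (-3.65, adjusted p = 0.00205), Ccnd1 (-1.91, adjusted p = 0.00383), Ugt1a9 (-1.32, adjusted p = 0.00312), Fdft1 (-1.13, adjusted p = 0.0113), and Cyp2c23 (-0.76, adjusted p = 0.0256). Of the 12 genes only Fdft1 kept this call under every setting. The call for Cyp2c23 was lost without C57BL/6J mouse 4 (-0.68, adjusted p = 0.0574), without A/J mouse 5 (-0.71, adjusted p = 0.0501), without a count filter (adjusted p = 0.378), in cohort 2 alone (adjusted p = 0.217), and when only the mice compared were fitted (adjusted p = 0.28). That last fit also lost Cidea, Mup12, Mup1, C4a, Camk2b, Cib3, Ccnd1, and Ugt1a9. The fit without a count filter lost Mup17 and Mup12, cohort 2 alone lost C4a and Igha, and edgeR and DESeq2 lost Camk2b.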

How the results depend on the processing

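The 8493 genes called on WD ranged from 5882 to 9501 under the other settings, and the 2726 at 2-fold fell to 827 when every mouse had to have at least 10 counts, since that filter removes genes near 0 in one strain. The CD count was 2437 in cohort 2 alone. The count of genes whose strain difference depended on diet was the least stable. It was 125, against 19 when only the mice compared were fitted, 203 with cohort as a term, 286 by DESeq2, 383 without both mice that stood apart, 625 with quality weights, and 787 in cohort 2 alone. The cause was not tested. Leaving out each mouse gave 7720 to 8480 calls on WD, 2464 to 2823 at 2-fold, and 87 to 317 for the difference, the last without C57BL/6J mouse 3. Of the 105 named genes called on WD, 89 kept the call under every setting run. Cohort 2 alone lost 10 (Pparg, Ptprc, Trem2, Gpnmb, Timd4, Col1a1, Col3a1, Fn1, C3, and Atf3), the fit of the compared mice 5 (Pparg, Mup11, Marco, Timd4, and Mup17), the absence of a count filter 4 (Alb, Elovl3, Timd4, and Mup17), and cohort as a term 4 (Pparg, Gpnmb, Timd4, and Dbp). The sign turned for Pparg in cohort 2 (-0.22), for Hsd3b5 in cohort 2 (2.54), and for Mup1, which was not called (-0.10), by edgeR (1.47), by DESeq2 (1.49), with cohort as a term (1.37), and in cohort 2 (2.59).

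In percentage points, leaving out each mouse moved the strain difference in unmapped reads from 0.558 to 0.805, in multimapping reads from 0.954 to 1.17, in reads on no gene from -0.39 to -0.208, and in reads on more than 1 gene from -0.348 to -0.219. In cohort 2 alone the differences were 1.3 (unmapped), 1.54 (multimapping), and -0.559 (more than 1 gene), and that in the RNA integrity number was -0.392. None passed the threshold there, where 3 mice against 4 cannot go below p = 0.0571 before adjustment (exact permutation test). No paired analysis was possible because the labels give the mice no replicate numbers shared between the strains.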
